A study of Homo sapiens with 6 samples.

Results

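The genes described here are 9 members of the MHC class I presentation pathway, taken by symbol from the 33835 genes with counts in the table: the heavy chains HLA-B, HLA-C, HLA-E and HLA-F, the light chain B2M, the peptide transporter subunits TAP1 and TAP2, the loading factor TAPBP and the transactivator NLRC5. All 9 passed the filter on low counts. RNA was sequenced from DU145, an established human prostate carcinoma line, to look for genes that depend on E6AP, a ubiquitin ligase encoded by UBE3A. The shE6AP group (3 libraries) carried a short hairpin against E6AP and the wobble group (3 libraries) the hairpin that the labels call its control. Both groups were DU145 cells transduced in culture and both were given doxycycline, 0.2 µg/ml for 2.5 days, which switches the hairpin on; the labels do not say whether the cells were pools or clones or whether each library had its own culture. The p-values therefore cover the variation among these 6 libraries, part or all of which could be technical.

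Class I molecules display peptides from inside the cell to CD8 T cells and to natural killer cells. Peptides cut by the proteasome are pumped into the endoplasmic reticulum by TAP1 and TAP2, trimmed there, and loaded with the help of tapasin, the product of TAPBP, onto a heavy chain paired with beta-2 microglobulin, the product of B2M. Interferons raise most of these genes through IRF and STAT factors, and NLRC5 raises them through a promoter module bound by RFX, CREB and NFY proteins. Tumour cells are known to lose or lower class I genes, and interferon can restore them.

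Gene reads ran from 21558506 to 28228823 in shE6AP libraries and from 27336700 to 30488217 in wobble libraries. UBE3A stood at 14.6 ± 0.376 CPM in shE6AP and 55.8 ± 1.97 CPM in wobble (SD, n = 3 each), with a log2 fold change of -1.94 (SE 0.0512), and was lower in every library carrying the hairpin. CPM, the usual count unit scaled to library size, here includes TMM scaling, a correction for library composition. Epithelial markers KRT8, KRT18, KRT19, EPCAM and CDH1 were all present, at a summed level of 1050 to 1090 CPM in shE6AP and 918 to 948 CPM in wobble. Of 10 blood cell markers, 7 had counts, and they summed to 32.4 to 33.9 CPM in shE6AP and 37.3 to 39.9 CPM in wobble, most of it CD68, which fell. Among those 7, 3 rose (CD14, ITGAM and HLA-DRA), 2 fell and 2 did not pass, with a median log2 fold change of 0.449. PTPRC, the pan-leukocyte gene CD45, was at 0.359 ± 0.0713 CPM in shE6AP and 0.267 ± 0.0993 CPM in wobble (SD, n = 3 each). Fibroblast and endothelial markers summed to 18.1 to 19.5 CPM in shE6AP and 13.6 to 16.4 CPM in wobble, most of it COL1A1. The part of any of these in the results below was not tested.

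Sequence before the annotated transcript starts shows what the promoters of these genes share; RefSeq windows (GRCh38.p14, whereas the reads were aligned to hg19) were matched for 7 of the 9 genes, all but HLA-E and NLRC5. The last 180 bases before the start are printed 5′ to 3′ on the strand of the gene. Capitals mark matches, on either strand, to the IRF core AANNGAAA, the CRE core TGACG, the CCAAT box and a kB-like motif (GGGNN followed by TTNCC); the motifs were chosen with these sequences in view. The windows are chr6:31357180-31357359 for HLA-B, chr6:31272093-31272272 for HLA-C, chr6:32853705-32853884 for TAP1, chr6:32838740-32838919 for TAP2 and chr6:33314079-33314258 for TAPBP, all on the minus strand, and chr6:29723254-29723433 for HLA-F and chr15:44711337-44711516 for B2M, on the plus strand. TAP1 has a further annotated start, whose window held none of the motifs.
HLA-B: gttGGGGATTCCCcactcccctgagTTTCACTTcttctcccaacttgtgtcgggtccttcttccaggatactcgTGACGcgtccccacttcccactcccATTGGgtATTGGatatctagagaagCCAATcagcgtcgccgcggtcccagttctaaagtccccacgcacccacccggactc
HLA-C: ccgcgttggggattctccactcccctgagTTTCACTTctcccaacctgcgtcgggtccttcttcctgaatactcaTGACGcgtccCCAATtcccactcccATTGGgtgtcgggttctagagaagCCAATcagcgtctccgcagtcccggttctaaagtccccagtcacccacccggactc
HLA-F: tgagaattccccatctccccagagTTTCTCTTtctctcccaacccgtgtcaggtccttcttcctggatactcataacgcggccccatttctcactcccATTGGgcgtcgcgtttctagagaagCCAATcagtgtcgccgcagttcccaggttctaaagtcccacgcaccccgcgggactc
B2M: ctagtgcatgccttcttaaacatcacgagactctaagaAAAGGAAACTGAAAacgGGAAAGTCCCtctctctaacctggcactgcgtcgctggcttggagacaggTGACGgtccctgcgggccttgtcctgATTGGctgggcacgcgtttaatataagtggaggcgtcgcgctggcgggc
TAP1: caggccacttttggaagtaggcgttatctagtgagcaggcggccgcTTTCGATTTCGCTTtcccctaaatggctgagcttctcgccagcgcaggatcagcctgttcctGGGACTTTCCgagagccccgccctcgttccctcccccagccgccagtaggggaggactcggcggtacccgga
TAP2: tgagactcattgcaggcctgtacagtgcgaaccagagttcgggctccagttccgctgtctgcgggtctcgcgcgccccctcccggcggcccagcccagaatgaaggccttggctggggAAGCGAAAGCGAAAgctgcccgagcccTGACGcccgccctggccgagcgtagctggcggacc
TAPBP: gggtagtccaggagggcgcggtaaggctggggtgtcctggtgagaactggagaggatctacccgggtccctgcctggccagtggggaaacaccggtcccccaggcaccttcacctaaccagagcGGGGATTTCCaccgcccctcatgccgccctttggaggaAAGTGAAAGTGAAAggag
Each of these 7 windows held an IRF core within its 250 upstream bases, as did 20.3% of 35116 RefSeq windows. B2M, TAP1, TAP2 and TAPBP each held a pair of overlapping cores, whereas HLA-B, HLA-C and HLA-F each held a lone core. TGACG was found in HLA-B, HLA-C, B2M and TAP2 (21.2% of all windows). CCAAT was found in HLA-B, HLA-C, HLA-F, B2M and TAP1 (32% of all windows). The kB-like letters were found in HLA-B, B2M, TAP1 and TAPBP (5.07% of all windows). HLA-B, HLA-C and HLA-F shared the order of an IRF core followed by CCAAT boxes on both strands, and TGACG lay between them in HLA-B and HLA-C but was not found in the HLA-F window. A CCAAT box of HLA-C, at -192 to -188, and that of TAP1, at -249 to -245, lie upstream of the printed bases. TGACG, an IRF core and CCAAT occurred together in HLA-B, HLA-C and B2M, and in 1.19% of all windows. A match describes letters and is not evidence of a bound factor.

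**Figure D1:**
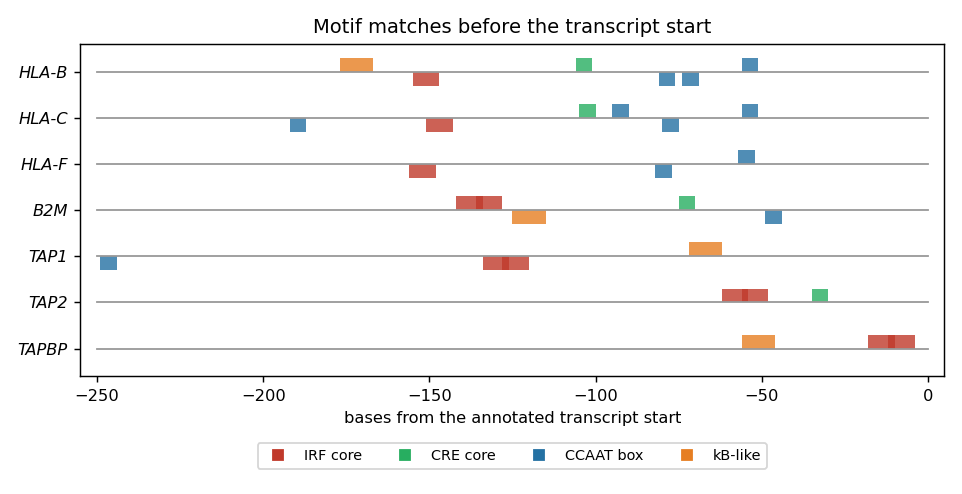
Motif matches (coloured boxes) in the 250 bases before the annotated transcript start of 7 genes; the horizontal axis is bases from the start, boxes above a line are on the gene's strand and boxes below it on the opposite strand. All 7 genes have at least 1 IRF core, at -18 to -11 and -12 to -5 in TAPBP and farthest from the start, at -156 to -149, in HLA-F.

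In shE6AP relative to wobble, 7 of the 9 genes rose (HLA-B, HLA-C, B2M, TAP1, TAP2, TAPBP and NLRC5). HLA-E fell and HLA-F did not pass the test. Whether the hairpin acted on targets other than UBE3A was not tested. Changes were moderate, from 1.69-fold for HLA-B to 1.13-fold for B2M among the genes that rose, and HLA-E was at 0.77 of its wobble level. Calls come from edgeR (quasi-likelihood test between the groups), at a Benjamini-Hochberg adjusted p under 0.05 over all 19433 genes tested. That test called 59% of all genes, 28.6% higher and 30.4% lower, so being called sets no gene apart here. Levels did not overlap between groups for 8 of the 9 genes (62.6% of all genes), 7 of them higher in each shE6AP library (30.6%) and 1 lower (31.9%). The median log2 fold change was 0.47 for the 9 genes and 0.0084 for all genes tested. The share of all genes with a larger change in either direction was 35.2% for HLA-E. Among the genes that rose it ran from 12% for HLA-B to 57.5% for TAPBP and 65.6% for B2M. B2M, TAPBP and HLA-F changed by less than the median absolute log2 fold change of all genes, 0.264. Together the 9 genes took 0.157% to 0.161% of gene reads in shE6AP libraries and 0.126% to 0.129% in wobble libraries. In bulk libraries a change in the share of cells that express a gene and a change in RNA per cell cannot be told apart.

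**Figure D2:**
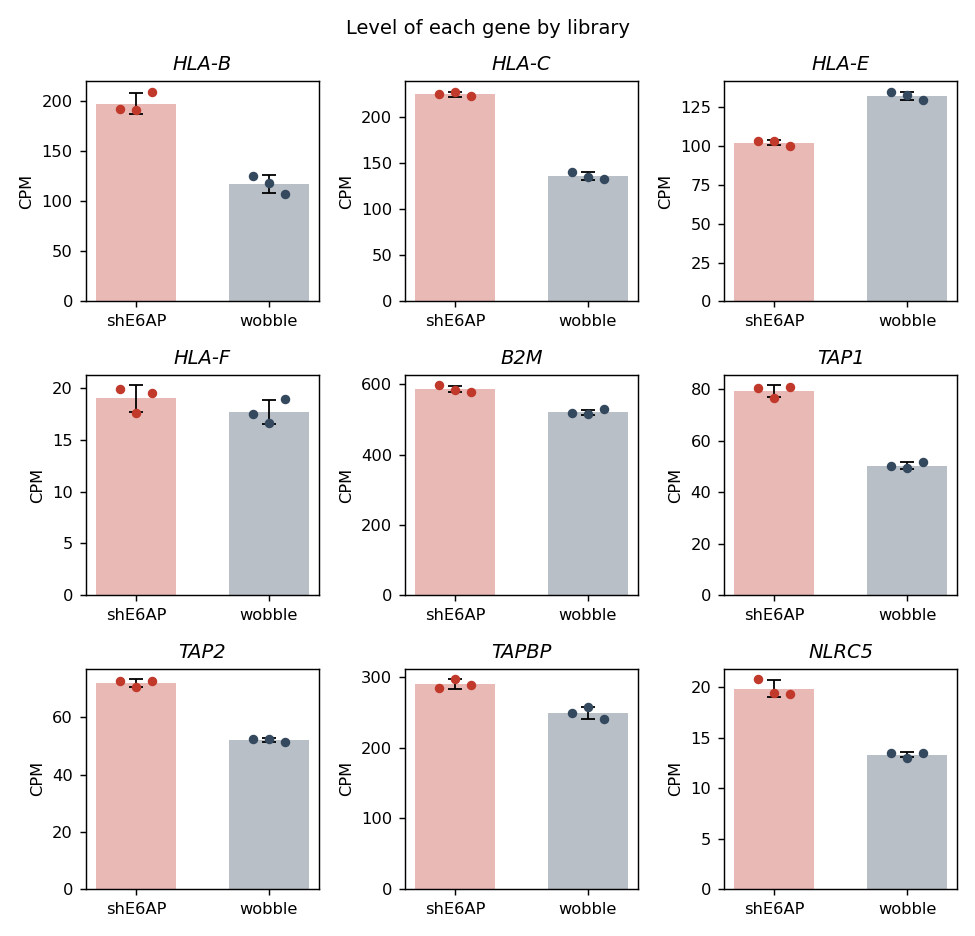
Level in CPM (vertical axis, from 0) of each of the 9 genes in shE6AP and wobble; each of the 3 points in a group is a library, drawn with the group mean and its SD. The groups overlap for HLA-F alone, HLA-E lies lower in all shE6AP libraries and the other 7 lie higher.

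The classical heavy chains HLA-B and HLA-C, which present peptides to CD8 T cells and engage killer cell receptors, moved most. HLA-B stood at 191.8, 190.3 and 209.1 CPM in shE6AP libraries 1 to 3, against 124.7, 118.1 and 107.4 CPM in wobble libraries 1 to 3. Every shE6AP library lay above every wobble library. The log2 fold change of HLA-B was 0.75 (SE 0.0405), with an adjusted p of 2.77e-20 (edgeR), and 12% of all genes tested had a larger change in either direction. HLA-C stood at 224.3, 227.5 and 222.3 CPM in shE6AP and at 140.2, 134.3 and 132.3 CPM in wobble. Again the groups did not overlap, and the shE6AP libraries lay within a narrow range. The log2 fold change of HLA-C was 0.73 (SE 0.0335), with an adjusted p of 1.27e-22 (edgeR). Reads on HLA-B per read on HLA-C came to 0.855, 0.836 and 0.941 in shE6AP, against 0.890, 0.879 and 0.812 in wobble. These ratios overlapped, with a difference of 0.028 on the log2 scale (exact two-sided permutation p = 0.7; adjusted over the 6 ratios examined, 0.7), and the sign of that difference turned without shE6AP library 3 (-0.023) or without wobble library 3 (-0.014).

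HLA-E, a nonclassical heavy chain that presents leader peptides of other class I chains to the NKG2 receptors of natural killer cells, went the other way. It had 103.1, 103.0 and 100.3 CPM in shE6AP, against 134.9, 133.1 and 129.7 CPM in wobble. All 3 shE6AP libraries lay below all 3 wobble libraries. Its log2 fold change of -0.38 (SE 0.0348) had an adjusted p of 1.01e-12 (edgeR). Within a library, which no scaling affects, there were 0.537, 0.541 and 0.479 reads on HLA-E per read on HLA-B in shE6AP and 1.08, 1.13 and 1.21 in wobble; this ratio was chosen after the values were seen and has no test.

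HLA-F, a nonclassical heavy chain found mostly inside cells, overlapped between the groups. Its values came to 19.95, 17.56 and 19.52 CPM in shE6AP, against 17.54, 16.65 and 18.93 CPM in wobble. The lowest shE6AP library lay level with the middle wobble library. Its log2 fold change of 0.11 (SE 0.0631) had an adjusted p of 0.133 (edgeR); without shE6AP library 2 it was 0.16 with an adjusted p of 0.0488 (edgeR), and across all alternatives the adjusted p ran up to 1.

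B2M, the light chain that pairs with class I heavy chains, rose slightly. It had 597.2, 583.6 and 579.5 CPM in shE6AP, against 518.3, 515.5 and 529.1 CPM in wobble. The groups did not overlap, and the gap between them was small. Its log2 fold change of 0.17 (SE 0.031) had an adjusted p of 6.21e-06 (edgeR). Reads on the 4 heavy chains together, per read on B2M, came to 0.903, 0.923 and 0.951 in shE6AP, against 0.805, 0.780 and 0.734 in wobble. Heavy chain reads were thus higher relative to B2M in each shE6AP library, by 0.26 on the log2 scale (exact permutation test, two-sided, p = 0.1, which 3 against 3 libraries cannot go below; adjusted over the 6 ratios, 0.12).

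TAP1 and TAP2 form the transporter that carries peptides into the endoplasmic reticulum. TAP1 had 80.4, 76.67 and 80.75 CPM in shE6AP, against 50.2, 49.21 and 51.67 CPM in wobble. Its log2 fold change of 0.66 (SE 0.0394) had an adjusted p of 1.15e-18 (edgeR). TAP2 had 72.73, 70.54 and 72.86 CPM in shE6AP, against 52.34, 52.46 and 51.33 CPM in wobble. Both rose with no overlap between groups. The log2 fold change of TAP2 was 0.47 (SE 0.0388), with an adjusted p of 3.5e-14 (edgeR). TAP1 reads per TAP2 read came to 1.106, 1.087 and 1.108 in shE6AP, against 0.959, 0.938 and 1.006 in wobble, all higher in shE6AP, by 0.19 on the log2 scale (exact two-sided permutation p = 0.1, the smallest possible; adjusted over the 6 ratios, 0.12).

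TAPBP, tapasin, which bridges TAP and the empty heavy chain, rose by less. It had 283.8, 296.9 and 288.5 CPM in shE6AP, against 248.7, 257.2 and 240.8 CPM in wobble. The groups were apart, with a log2 fold change of 0.22 (SE 0.0329) and an adjusted p of 1.96e-07 (edgeR). NLRC5, the transactivator of class I genes, had 20.83, 19.48 and 19.35 CPM in shE6AP, against 13.54, 13.01 and 13.47 CPM in wobble. It rose in all 3 shE6AP libraries, with a log2 fold change of 0.58 (SE 0.0628) and an adjusted p of 8.48e-11 (edgeR). Tested against a fold of 1.2 with edgeR's glmTreat, B2M and TAPBP no longer passed; 5 of the 9 genes were then called higher and 1 lower, against 13.1% and 15.9% of all genes.

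**Figure D3:**
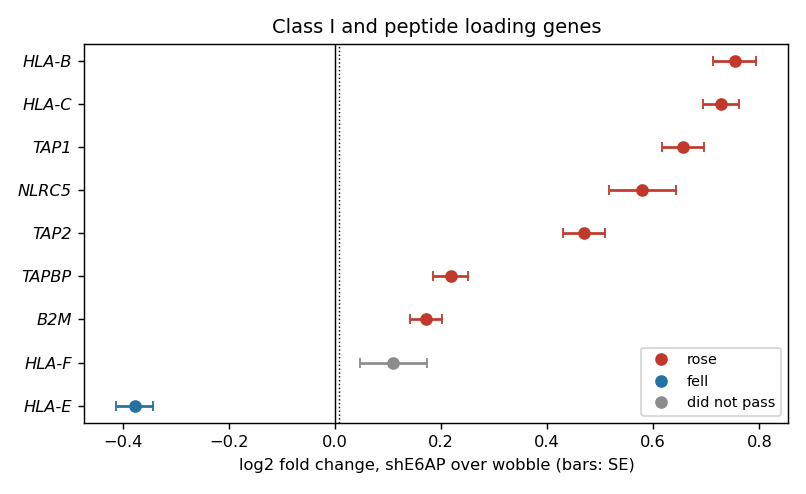
Change in shE6AP relative to wobble as log2 fold (horizontal axis) for each of the 9 genes; points are edgeR estimates, bars their SE, and the dotted line the median of all genes tested (0.0084). HLA-B, HLA-C and TAP1 lie above 0.6, TAPBP and B2M between 0.17 and 0.22, and HLA-E alone lies below 0.

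Scaled by the length of the longest principal transcript in GENCODE 29, which is not on the study's build, levels can be set beside each other. B2M was the most abundant, at 344 ± 5.43 CPM per kilobase in shE6AP and 306 ± 4.2 in wobble (SD, n = 3 each). In shE6AP the order went on with TAPBP (153 ± 3.51 CPM per kilobase) and HLA-C (146 ± 1.71), then HLA-B (127 ± 6.76), HLA-E (39.3 ± 0.613), TAP2 (28.9 ± 0.523), TAP1 (26.8 ± 0.764), HLA-F (11.6 ± 0.778) and NLRC5 (2.92 ± 0.12). The order of the genes was the same in wobble, where HLA-C was at 88.3 ± 2.67, HLA-B at 75.5 ± 5.66 and HLA-E at 51.0 ± 1.02 CPM per kilobase. Neighbours in that order lay apart by more than the sum of their SDs in both groups, though the order rests on the lengths taken. Class I heavy chains are near-identical over stretches, and the share of their 50-base words that also occurs in transcripts of other genes was 2.7% for HLA-B, 5.4% for HLA-C, 4.3% for HLA-E and 1.0% for HLA-F, so some reads may be split or lost, and reads from cell line alleles unlike the reference may not align. In GENCODE 29, 32.3% of exon bases of TAP2, 28.5% of HLA-F, 18.9% of HLA-B and 9.5% of TAP1 also lie in another gene, and a kit that does not mark strand cannot tell opposite strands apart there. Of the 50-base words of TAP2, 31.3% occur in other genes.

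The other class I and class I-like genes of a list were divided. Of 8 tested, 3 rose and 3 fell (75% called, against 59% of all genes), with a median log2 fold change of -0.062. HLA-H, a class I pseudogene, was at 49.1 ± 1.32 CPM in shE6AP and 34.4 ± 3.33 CPM in wobble (log2 fold change 0.51), and HLA-G, a nonclassical chain known from the placenta, rose by 0.30 on the log2 scale though its libraries overlapped; both share sequence with the classical genes. HFE, which regulates iron uptake, rose by 0.20. The class I-like genes that fell were MR1, which presents vitamin B metabolites to MAIT cells (log2 fold change -0.68), FCGRT, the neonatal Fc receptor chain (-0.64), and PROCR, the protein C receptor (-0.50). HFE, MR1 and FCGRT all pair with beta-2 microglobulin as HLA-B and HLA-C do.

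Genes listed for peptide loading and trimming moved both ways, with 6 of 14 higher and 5 lower (median log2 fold change -0.072). The list reaches beyond the loading complex itself. The share called was 78.6%, against 59% of all genes. CANX, calnexin, which holds new heavy chains, was at 833.8 ± 11.9 CPM in shE6AP and 609.3 ± 15.8 CPM in wobble, and PDIA3, ERp57, a thiol oxidoreductase of the loading complex, rose by 0.24 on the log2 scale. CALR, calreticulin, which holds the assembled heavy chain in that complex, fell slightly (log2 fold change -0.18). The trimming peptidases ERAP1 and ERAP2 parted: ERAP1 was at 96.8 ± 1.37 CPM in shE6AP and 70.3 ± 3.10 CPM in wobble, and ERAP2 at 64.4 ± 0.686 CPM in shE6AP and 84.7 ± 3.20 CPM in wobble (log2 fold changes 0.46 and -0.39). HM13, signal peptide peptidase, which releases the leader peptides that HLA-E presents, fell (log2 fold change -0.23).

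Among 16 genes of peptide supply, 6 rose and 5 fell (68.8% called, against 59% of all genes), with a median log2 fold change of 0.01. The catalytic immunoproteasome subunits PSMB8, PSMB9 and PSMB10 were among those that rose. Of the interferon-inducible proteasome activator genes, PSME2 fell (log2 fold change -0.24) and PSME1 did not pass (0.056, adjusted p = 0.214, edgeR). PSMB9 had 13.32, 12.37 and 11.89 CPM in shE6AP, against 6.836, 7.856 and 6.237 CPM in wobble, a log2 fold change of 0.85 (SE 0.0842). It is transcribed divergently from the same intergenic stretch as TAP1, so their starts share flanking DNA. PSMB8 was at 28.0 ± 2.33 CPM in shE6AP and 21.6 ± 1.45 CPM in wobble, and PSMB10 at 9.31 ± 0.409 CPM in shE6AP and 7.07 ± 0.488 CPM in wobble. Their constitutive counterparts did not share a direction: PSMB5 fell (log2 fold change -0.34), PSMB7 rose (0.28) and PSMB6 did not pass (0.0049). Reads on PSMB9 per read on PSMB6 came to 0.111, 0.114 and 0.109 in shE6AP, against 0.0579, 0.072 and 0.0568 in wobble. Reads on PSMB8 per read on PSMB5 came to 0.454, 0.389 and 0.389 in shE6AP, against 0.256, 0.258 and 0.240 in wobble. All shE6AP libraries lay above all wobble libraries in these ratios, by 0.85 and 0.71 on the log2 scale, and also in PSMB10 per PSMB7, by 0.12 (exact two-sided permutation p = 0.1 for each, the smallest possible; adjusted over the 6 ratios, 0.12). LAP3, a leucine aminopeptidase of the cytosol, rose by 0.43, while TPP2, tripeptidyl peptidase, and NRD1, nardilysin, fell by 0.54 and 0.22 on the log2 scale.

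**Figure D4:**
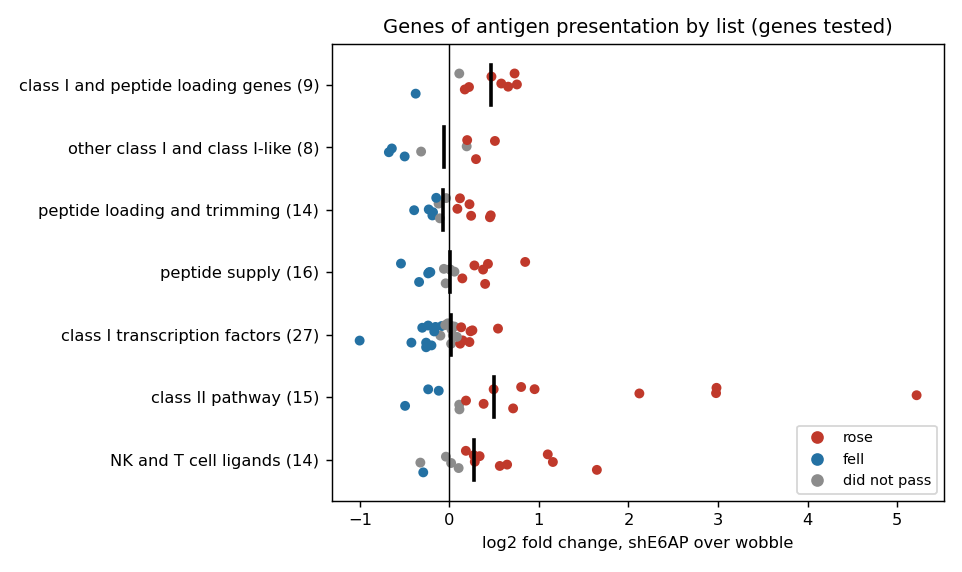
Change in shE6AP relative to wobble as log2 fold (horizontal axis) for the 9 genes and for the tested genes of 6 lists (vertical axis, number tested in brackets); each point is 1 gene, coloured by whether it rose, fell or did not pass, and black bars are medians. Medians are 0.47 for the 9 genes, 0.494 for class II genes and 0.278 for ligands of NK and T cells, and within 0.1 of 0 for the other 4 lists.

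Of 27 factors that act on class I promoters, 7 were higher and 10 lower (median log2 fold change 0.019). The share called, 63%, was near the 59% of all genes. IRF1, which binds the IRF core shown above, was at 27.6 ± 0.792 CPM in shE6AP and 18.9 ± 0.450 CPM in wobble. Subunits of the factor that binds CCAAT did not share a direction: NFYA and NFYC rose (log2 fold changes 0.22 and 0.13) and NFYB fell (-0.17). SOCS3, a feedback inhibitor of cytokine receptors, was at 29.5 ± 2.10 CPM in shE6AP and 59.2 ± 1.43 CPM in wobble. JAK1, a kinase of interferon receptors, and STAT2, of the type I interferon response, fell as well (log2 fold changes -0.42 and -0.30). Protein was not measured.

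Genes of the class II pathway were higher more often than lower. The HLA chains of that pathway are encoded in the same chromosome region and share the RFX and NFY factors. Of 15 genes tested, 10 rose and 3 fell (86.7% called, against 59% of all genes), with a median log2 fold change of 0.494. CD74, the invariant chain, had 20.09, 17.47 and 17.06 CPM in shE6AP, against 0.330, 0.519 and 0.627 CPM in wobble. HLA-DPA1, a class II alpha chain, was at 2.53 ± 0.246 CPM in shE6AP and 0.317 ± 0.165 CPM in wobble, and HLA-DRB1, a beta chain, rose by 0.80 on the log2 scale. CIITA, the transactivator of class II genes and a relative of NLRC5, was at 3.36 ± 0.288 CPM in shE6AP and 3.12 ± 0.153 CPM in wobble and did not pass (adjusted p = 0.476, edgeR). IFI30, a thiol reductase, CTSS, cathepsin S, and HLA-DMA, a peptide exchange factor, fell (log2 fold changes -0.50, -0.24 and -0.12). Of the lower class II genes, 1 was called with DESeq2, upper-quartile scaling or glmTreat, and without shE6AP library 2, shE6AP library 3, wobble library 2 or wobble library 3. HLA-DRA, also a blood cell marker, had 14, 22 and 27 reads in shE6AP libraries and 3, 6 and 0 reads in wobble libraries; PTPRC is given above, and the part of other cells was not tested.

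Ligands that natural killer and T cells read beside class I also rose more often than they fell, 9 of 14 against 1 (median log2 fold change 0.278). The share called was 71.4%, against 59% of all genes. CD274, the checkpoint ligand PD-L1, was at 19.1 ± 0.705 CPM in shE6AP and 6.09 ± 0.330 CPM in wobble (log2 fold change 1.65, SE 0.0749). PVR, a ligand of DNAM-1 and TIGIT, was at 416.7 ± 4.59 CPM in shE6AP and 194.5 ± 4.77 CPM in wobble. MICA, a stress-induced ligand of NKG2D encoded beside HLA-B, was at 63.6 ± 2.53 CPM in shE6AP and 40.7 ± 2.01 CPM in wobble. ULBP3, another NKG2D ligand, fell by 0.29 on the log2 scale, a call that was lost with DESeq2, upper-quartile scaling or glmTreat, and without shE6AP library 1, shE6AP library 3 or wobble library 3.

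Of the 9 genes, 7 lie in the MHC on chromosome 6, with B2M on chromosome 15 and NLRC5 on chromosome 16. Position was not used to choose them, and the other genes tested between HLA-F and TAPBP showed what the region did as a whole. Of 131 such genes, 50 rose and 26 fell, whereas over all genes 28.6% rose and 30.4% fell. In either direction 58% of the 131 were called, against 59% of all genes, and their median log2 fold change was 0.114. They include genes of the lists above, such as MICA, PSMB9 and HLA-DRB1. The order came from RefSeq, which lists 293 genes there, 189 of them matched to counts. Of the tested genes on either side of HLA-B, MICA rose and the pseudogene RPL3P2 did not pass (log2 fold change 0.20). BAG6, a chaperone gene of the class III segment chosen after its values were seen, fell, with 282.5 ± 6.59 CPM in shE6AP and 352.1 ± 6.62 CPM in wobble.

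**Figure D5:**
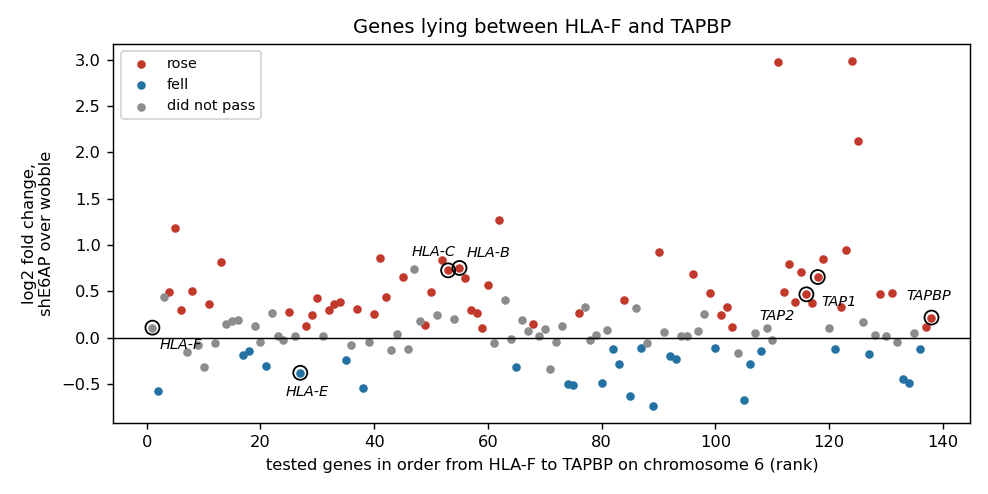
Log2 fold change of shE6AP over wobble (vertical axis) for each tested gene from HLA-F to TAPBP in chromosomal order (horizontal axis, rank); points are coloured by whether the gene rose, fell or did not pass, and 7 class I and loading genes are circled and named. The region holds both rises and falls, unevenly spread. No gene in the stretch around HLA-C and HLA-B fell, and every tested gene from HLA-DRA to PSMB9, TAP1 and TAP2 among them, rose. The 3 points highest on the axis are the class II genes HLA-DPA1, HLA-DRA and HLA-DPB1.

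HLA-B had the largest change of the 9, and among 12375 other genes of at least 5 CPM on average the profiles most like it over the 6 libraries, by Pearson's r of log2 CPM, were those of OSGEP (r = 0.9989), RP11-345P4.5 (r = 0.9984) and BTBD11 (r = 0.9982). OSGEP, which modifies transfer RNA, averaged 38.1 CPM in shE6AP and 26.8 CPM in wobble. With both groups far apart a high r is common: 2914 genes reached 0.9.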

How the data were processed

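The deposited table holds raw counts of reads per gene, 1 column per library; the submitters' processing notes name the build hg19 and the tools TopHat2 2.0.13, Bowtie2 and HTSeq. No source used here names the annotation or the strand setting; per the labels' protocols the kit was TruSeq RNA version 2, which does not mark strand. Of 33839 rows, 33835 name a gene with values; the others (2 HTSeq summaries, a nameless row holding at most 5.57e-05% of gene reads and a name lacking values) were left out. Reads outside genes were 14.6% to 16.0% and ambiguous reads 2.05% to 2.21%.

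The quasi-likelihood test of edgeR 4.0.16 (R 4.3.3) had group as its only term, after filterByExpr (19433 genes) and TMM; SE is the log2 fold change divided by the root of F. Alternatives were scaling by library total, RLE or upper quartile, limma-voom (limma 3.58.1), DESeq2 1.42.0, no filter or 1 CPM in 3 libraries, glmTreat, the replicate number as a block, and each library left out. In data simulated from the fitted model (19156 genes), 200 genes above 5 CPM on average were changed. There 84% of 1.2-fold and 100% of 1.5-fold changes were recovered, and 2.04% of calls were unchanged genes. The real data had 59% of genes called, some below 5 CPM, so these rates need not carry over. Replicates differed beyond counting noise (chi-square per gene 1.68 to 3.27 within groups, 42.7 to 49.6 between).

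The members and lists were chosen with earlier results of these data known. Beside the members, genes named are up to 3 per list and direction by smallest p, those of the 6 ratios, and the 3 most like HLA-B. Others, named beside small counts, as markers, as further subunits or as neighbours, were chosen after their values were seen. 1 gene was taken out of the list of other class I genes after its counts had been seen; it and some other genes of the lists are not reported here, though counts over other lists or all genes may include them.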

Additional observations from a re-analysis of the deposited data

How the results depend on the processing

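Of the 9 genes, 8 were called with each of 3 other scalings, limma-voom, DESeq2, both other filters and the replicate block; with single libraries left out 8 to 9 were called (7 to 8 higher, 1 lower), and with glmTreat 6. Directions held for all 9 in each of 15 alternatives. Deviations of same-numbered libraries correlated weakly, at 0.0438, 0.0166 and 0.0372, and those of differently numbered libraries ran from -0.0325 to -0.00567. Whether the replicate numbers pair the libraries was not tested. As a block the numbers gave 11979 calls over all genes, against 11467 without it. The same 8 of the 9 genes were called, with 2 NK and T cell ligands lower. The all-gene median moved by at most 0.0284 (log2) with any scaling. With glmTreat, 5637 genes were called over all, 2553 higher and 3084 lower; other class I 4 (1 higher, 3 lower); loading and trimming 3 (2 higher, 1 lower); supply 5 (3 higher, 2 lower); transcription factors 3 (1 higher, 2 lower); class II 9 (8 higher, 1 lower); ligands 6 (6 higher, 0 lower); and genes between HLA-F and TAPBP 36 (26 higher, 10 lower). Lower class II genes numbered 1 with upper-quartile scaling and with DESeq2 and 1 to 2 with libraries left out; lower ligands 0 with upper-quartile scaling and with DESeq2, 2 with a filter of 1 CPM in 3 libraries, and 0 to 1 with libraries left out. The log2 difference in HLA-B per HLA-C ran from -0.023 to 0.061 with libraries left out. The causes were not tested. With 3 libraries a group, no exact permutation p can be below 0.1.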
